A study of Homo sapiens with 6 samples.

Results

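The protocadherins form a branch of the cadherin superfamily of calcium-dependent adhesion proteins. All array rows annotated with a single symbol beginning with PCDH were taken, antisense transcripts aside, which gave 42 genes among 22411 genes with a row of their own. Of these 42 genes, 4 belong to the alpha cluster, 18 to the beta cluster, 8 to the gamma cluster and 12 lie outside the clusters. Each had 1 row. Rows annotated with several symbols were not used, so the clusters were covered only in part.

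RNA came from U87MG, a human glioblastoma cell line, infected with lentiviruses that carry short hairpin RNAs. Cells carried the hairpin named sh50 or sh52, or shGFP, the control, and all were collected 5 days after drug selection ended. Each of the 3 groups had 2 arrays. The series title names SAT1, an enzyme of polyamine breakdown, while the design text states no target for either hairpin. Whether the replicates are separate infections or cultures, and whether cells were cloned, is not given in the labels, so a p-value covers the spread among these arrays alone and that spread may be technical. With 6 arrays the precision is limited throughout.

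Genes of the alpha, beta and gamma clusters stand in tandem on chromosome 5, and each variable exon has a promoter of its own. In the alpha and gamma clusters the variable exon is spliced to shared constant exons, whereas beta genes are single exons. In neurons each cell uses a few of these promoters, brought to distant enhancers by CTCF and cohesin, and the proteins bind like to like on neighbouring membranes. Non-clustered protocadherins have separate genes on several chromosomes and act in cell sorting, migration and synapse formation.

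A conserved element with the core CGCT is known upstream of most clustered protocadherin genes. These letters were looked for on the sense strand of the 250 bases before each start in RefSeq's promoter table (GRCh38.p14), which held 33 of the 42 genes. CGCT was present in 45 of 47 promoters of the clusters (95.7%), counting genes without a row of their own, against 47.9% of 27305 promoters of all genes. Within 100 bases of the start it stood in 93.6% of the cluster promoters and in 28.1% of all. The cluster promoters were poorer in G and C (mean GC content 40.0% against 56.9%). PCDHB8 held 0 copies of CGCT in these 250 bases, and PCDHGB2 held 1, which lay outside the last 100 bases. Windows are shown for some of the beta and gamma genes whose values are described below. They are also shown for PCDHB4 and 2 alpha genes, which lie below the detection filter. All lie on the plus strand, and capitals mark CGCT.
PCDHB14, chr5:141223259-141223302: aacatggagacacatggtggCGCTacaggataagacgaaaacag
PCDHB13, chr5:141213861-141213904: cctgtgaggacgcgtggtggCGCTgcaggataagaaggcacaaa
PCDHB12, chr5:141208639-141208682: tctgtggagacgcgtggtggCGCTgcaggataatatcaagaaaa
PCDHB16, chr5:141182306-141182349: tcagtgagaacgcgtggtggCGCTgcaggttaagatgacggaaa
PCDHB7, chr5:141172562-141172605: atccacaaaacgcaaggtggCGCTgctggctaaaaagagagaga
PCDHB4, chr5:141121719-141121762: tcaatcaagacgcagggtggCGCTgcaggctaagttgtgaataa
PCDHGA10, chr5:141412927-141412970: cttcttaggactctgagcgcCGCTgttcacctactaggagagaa
PCDHGA9, chr5:141402710-141402753: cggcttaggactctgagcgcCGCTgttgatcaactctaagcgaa
PCDHGB7, chr5:141417603-141417646: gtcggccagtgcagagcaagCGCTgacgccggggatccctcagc
PCDHA5, chr5:140821538-140821581: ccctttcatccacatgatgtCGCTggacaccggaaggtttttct
PCDHA6, chr5:140827893-140827936: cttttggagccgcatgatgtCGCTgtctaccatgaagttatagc

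The bases around the core differed between clusters. The longer run GGTGGCGCT, chosen after the windows had been read and searched on both strands, was found in 12 of 14 beta promoters, in 0 alpha and 0 gamma promoters and in 0.428% of all promoters. TGTCGCT, chosen and searched the same way, was found in 10 of 13 alpha promoters, in 1 beta and 3 gamma promoters, and in 1.31% of all. Both runs end with CGCT and so overlap the core. PCDHB4, with a mean of 2.96 here, holds the same run as PCDHB14. A match is a feature of the sequence, and whether it goes with the level was not tested.

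Before the members were compared, SAT1 was read on every array. It stood at 9.36 and 8.35 (log2 value) with sh50, at 10.83 and 7.84 on the arrays labelled sh52 and at 9.45 and 8.96 with shGFP. The array labelled sh52 replicate 1 thus carried the highest value, and each sh52 or joint direction below includes that array, whose SAT1 goes against a hairpin to this gene. With sh50, replicate 1 lay inside the control range, and each sh50 or joint direction below includes it. Of the hairpin arrays only those of replicate 2 lay below both controls. Array medians lay between 3.92 and 4.07. VIM, CD44 and FN1, mesenchymal genes of glioblastoma lines, averaged 15.84, 14.39 and 18.28 over the 6 arrays. In the same list of mesenchymal markers FN1 and CHI3L1 had higher estimates in the mean of both hairpins, by 1.12 ± 0.18 and 3.05 ± 0.54 (log2, SE, limma, adjusted p = 0.456 for both), among 7 tested, 4 with a higher and 3 with a lower estimate. Their part in the protocadherin levels was not tested. Of 12 neuronal markers 4 passed the detection filter, while SYP, SYN1, RBFOX3, STMN2, DCX and NEFL did not.

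A row was tested where its mean over the 6 arrays reached 3.98, the median of all rows, and 27 of the 42 protocadherins did so. These were 13 of 18 beta, 7 of 8 gamma, 7 of 12 non-clustered and 0 of 4 alpha genes. The alpha genes PCDHA5, PCDHA6, PCDHA7 and PCDHA11 had means of 2.50, 3.04, 3.29 and 3.04. PCDHB3, PCDHGB5 and PCDHB15 lay just below the limit with 3.60, 3.78 and 3.81, and PCDHGB8P, PCDH1 and PCDHGA5 just above it with 4.01, 4.03 and 4.05. The remaining genes below the filter were PCDHB1, PCDHB4 and PCDHB17P of the beta cluster and PCDH8, PCDH11X, PCDH12, PCDH19 and PCDH20 outside the clusters.

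The first question was whether protocadherin levels differed between cells with either hairpin and the shGFP cells. Many beta genes and some gamma genes stood above the controls on every hairpin array. In 16 of the 42 genes all 4 hairpin arrays lay above both shGFP arrays, against 8.09% of all rows, and in 0 genes did they lie below, against 7.65%. The 16 were 10 of 18 beta, 3 of 8 gamma, 1 of 4 alpha and 2 of 12 non-clustered genes. By limma with Benjamini-Hochberg adjustment 0 rows passed in this comparison (3102 had an unadjusted p under 0.05), so no single member is shown to differ. More cells with a transcript and more transcript per cell cannot be told apart in such bulk samples, nor fewer and less.

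**Figure D1:**
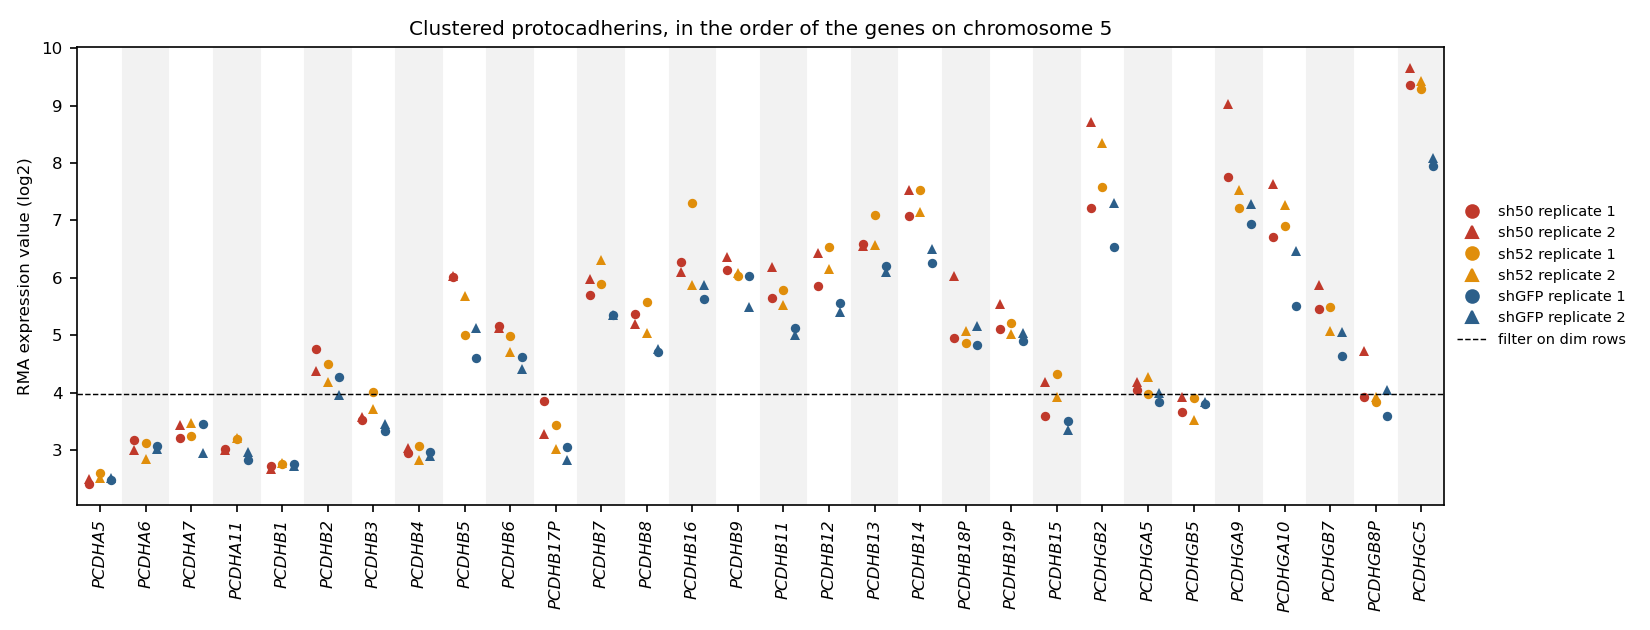
Log2 value on each array (vertical axis) for the 30 clustered protocadherins in chromosomal order, with sh50 in red, sh52 in orange and shGFP in blue, replicate 1 as circles and replicate 2 as triangles. The dashed line at 3.98 is the detection filter; alpha genes lie below it, and from PCDHB5 to PCDHB14 most hairpin symbols lie above the blue ones.

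PCDHGC5, one of the C-type genes at the end of the gamma cluster, had the smallest p of the family. It stood at 9.36 and 9.66 with sh50, at 9.29 and 9.43 with sh52 and at 7.96 and 8.10 with shGFP. The lowest hairpin array was thus more than 1 log2 unit above the higher control. In the mean of both hairpins PCDHGC5 was 2.66-fold higher (log2 change 1.41 ± 0.15, SE, 95% interval 1.03 to 1.79, limma, adjusted p = 0.456 and unadjusted p = 0.000127). Folds take the base of the logarithm as 2. Mature gamma transcripts share their constant exons, and whether the probes of this row lie in those exons was not tested.

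PCDHGA10 and PCDHGB7, gamma genes of the A and B types, also had all hairpin arrays above the controls. PCDHGA10 stood at 6.71 and 7.63 with sh50, at 6.90 and 7.28 with sh52 and at 5.51 and 6.47 with shGFP. PCDHGB7 stood at 5.46 and 5.87 with sh50, at 5.49 and 5.08 with sh52 and at 4.64 and 5.06 with shGFP. The margins were narrow, 0.23 for PCDHGA10 and 0.028 for PCDHGB7 between the lowest hairpin array and the higher control. The changes were 1.14 ± 0.38 for PCDHGA10 and 0.63 ± 0.22 for PCDHGB7 (log2, SE, limma, adjusted p = 0.499 and 0.505). Without shGFP replicate 1 they were 0.66 and 0.42.

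In the other gamma genes the groups overlapped. PCDHGB2 stood at 7.22 and 8.71 with sh50, at 7.58 and 8.36 with sh52 and at 6.54 and 7.30 with shGFP. Its replicate 1 value with sh50 fell inside the control range although both replicate 2 hairpin values lay more than 1 log2 unit above the controls. PCDHGA9 stood at 7.75 and 9.04 with sh50, at 7.21 and 7.52 with sh52 and at 6.94 and 7.29 with shGFP, so that both sh50 arrays but only 1 sh52 array cleared the controls. PCDHGA5, PCDHGB8P and PCDHGB5 were near the filter, and PCDHGB5 averaged 3.80 ± 0.19 with sh50, 3.71 ± 0.27 with sh52 and 3.83 ± 0.030 with shGFP (SD, n = 2 each). Over the 7 tested gamma genes the median change was 0.77 and over all 8 it was 0.70, against -0.0045 over all tested rows. PCDHGA5 averaged 3.92 with shGFP, 4.11 with sh50 and 4.13 with sh52, and PCDHGB8P averaged 3.82, 4.33 and 3.89. Both lay below the filter with shGFP and entered the 7 only through hairpin arrays. Each median or count over the 7 includes them.

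Among beta genes, which encode single-exon adhesion proteins without the shared cytoplasmic end, PCDHB14 had the widest gap. It stood at 7.08 and 7.52 with sh50, at 7.53 and 7.15 with sh52 and at 6.27 and 6.50 with shGFP. Its change was 0.93 ± 0.20 (log2, SE, limma, adjusted p = 0.456), a 1.91-fold higher level.

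PCDHB11, PCDHB12 and PCDHB13, which precede PCDHB14 in the cluster, showed smaller gaps in the same direction. On its other side the pseudogenes PCDHB18P and PCDHB19P overlapped between hairpin and control arrays. PCDHB12 stood at 5.86 and 6.43 with sh50, at 6.55 and 6.16 with sh52 and at 5.56 and 5.40 with shGFP. PCDHB13 stood at 6.59 and 6.56 with sh50, at 7.10 and 6.57 with sh52 and at 6.21 and 6.09 with shGFP. PCDHB11 stood at 5.65 and 6.19 with sh50, at 5.78 and 5.52 with sh52 and at 5.14 and 5.00 with shGFP. None of the 3 overlapped between hairpin and control arrays. Their changes were 0.77 ± 0.22, 0.55 ± 0.19 and 0.72 ± 0.20 (log2, SE, limma, adjusted p between 0.469 and 0.501).

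Towards the start of the cluster lie PCDHB6, PCDHB7 and PCDHB8. PCDHB7 stood at 5.70 and 5.99 with sh50, at 5.89 and 6.32 with sh52 and at 5.35 and 5.36 with shGFP. PCDHB8 stood at 5.38 and 5.20 with sh50, at 5.58 and 5.04 with sh52 and at 4.70 and 4.75 with shGFP. PCDHB6 stood at 5.17 and 5.12 with sh50, at 4.99 and 4.71 with sh52 and at 4.63 and 4.42 with shGFP. These 3 genes were separated by margins of 0.087 to 0.34 log2 units. Their changes were 0.62 ± 0.18 for PCDHB7, 0.57 ± 0.19 for PCDHB8 and 0.48 ± 0.15 for PCDHB6 (log2, SE, limma, adjusted p between 0.472 and 0.501). PCDHB16 was separated by 0.0040 only, and 1 array set its mean. It stood at 6.28 and 6.10 with sh50, at 7.31 and 5.88 with sh52 and at 5.63 and 5.88 with shGFP (change 0.64 ± 0.40, SE, limma, adjusted p = 0.700, and 0.28 without sh52 replicate 1).

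In the other tested beta genes hairpin and control arrays overlapped. PCDHB5 stood at 6.02 and 6.03 with sh50, at 5.01 and 5.68 with sh52 and at 4.60 and 5.13 with shGFP, with sh52 replicate 1 inside the control range. PCDHB9 averaged 6.25 ± 0.17 with sh50, 6.05 ± 0.040 with sh52 and 5.76 ± 0.39 with shGFP, and PCDHB2 averaged 4.57 ± 0.28, 4.35 ± 0.23 and 4.12 ± 0.22 in the same order (SD, n = 2 each). The pseudogene PCDHB18P averaged 5.49 ± 0.76 with sh50, 4.97 ± 0.15 with sh52 and 5.00 ± 0.24 with shGFP, and PCDHB19P averaged 5.32 ± 0.30, 5.12 ± 0.14 and 4.96 ± 0.098. Of the beta genes below the filter, PCDHB15 and PCDHB3 also had every hairpin array above the controls. PCDHB15 stood at 3.60 and 4.19 with sh50, at 4.32 and 3.92 with sh52 and at 3.51 and 3.34 with shGFP. Over the 13 tested beta genes the median change was 0.57 (range 0.23 to 0.93), and over all 18 it was 0.51. Beta genes are close in sequence, and whether a probe of one reads the transcript of another was not tested.

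The alpha genes gave no value above the filter. PCDHA11 alone of the 4 had all hairpin arrays above the controls, with 3.02 and 2.99 with sh50, 3.20 and 3.21 with sh52 and 2.84 and 2.96 with shGFP. Such values lie in the range of rows that were not tested. The median change over the 4 alpha genes was 0.076, against 0.0097 over all rows.

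Outside the clusters PCDH18, a protocadherin of the delta group on chromosome 4, had the largest change of the family. It stood at 9.79 and 10.79 with sh50, at 9.28 and 8.25 with sh52 and at 8.15 and 7.30 with shGFP. All hairpin arrays cleared the controls, the lowest by 0.10. Its change in the mean of both hairpins was 1.80 ± 0.45 (log2, SE, 95% interval 0.70 to 2.91, limma, adjusted p = 0.469).

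The other 6 tested non-clustered genes had no common direction, 3 with a higher and 3 with a lower estimate (median change 0.034). With PCDH18 the median was 0.090 over 7 tested genes, and it was 0.029 over all 12. Over the non-clustered genes at or above the 75th percentile of rows, PCDH7, PCDH17 and PCDH18 alone, the median was 1.09. PCDH7, also of the delta group, stood at 8.06 and 8.30 with sh50, at 8.84 and 7.18 with sh52 and at 7.60 and 6.42 with shGFP. Only sh52 replicate 2 overlapped the controls. PCDH17, another delta protocadherin, stood at 7.99 and 7.42 with sh50, at 7.55 and 7.31 with sh52 and at 8.17 and 6.69 with shGFP, all hairpin arrays inside the control range. PCDH10, known to recruit actin regulators, stood at 5.70 and 5.50 with sh50, at 5.96 and 5.72 with sh52 and at 5.45 and 6.17 with shGFP, again inside that range. PCDH20 was the other non-clustered gene with every hairpin array above the controls, at 3.17 ± 0.10 with sh50, 3.23 ± 0.090 with sh52 and 3.04 ± 0.031 with shGFP (SD, n = 2 each), below the filter. PCDH15, a component of hair cell tip links, PCDH1 and PCDH9 lay close to the filter.

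**Figure D2:**
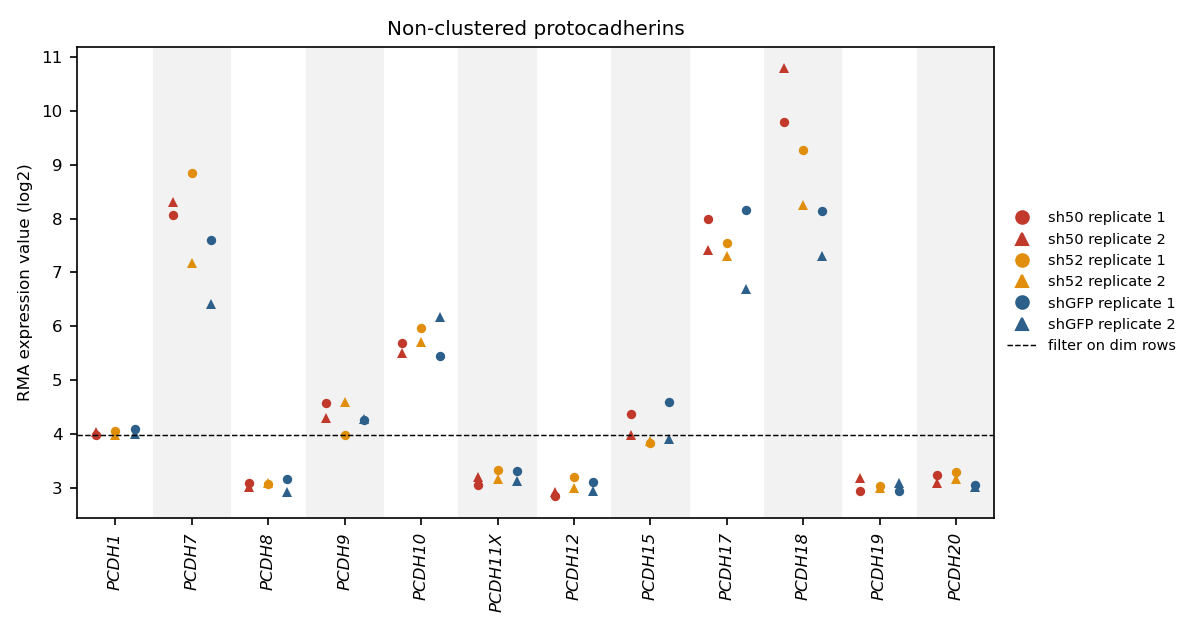
Log2 value on each array (vertical axis) for the 12 non-clustered protocadherins, with colours and symbols for group and replicate as keyed. PCDH18 has its sh50 symbols at 9.79 and 10.79 and its shGFP symbols at 8.15 and 7.30, while PCDH8, PCDH11X, PCDH12, PCDH19 and PCDH20 lie below the dashed filter at 3.98.

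Each hairpin was then set against shGFP by itself, with the same control arrays in both comparisons. With sh50, both arrays lay above both controls in 25 of 42 genes (15 of 18 beta, 5 of 8 gamma), against 15.9% of all rows. With sh52 this held for 18 of 42 (10 of 18 beta, 4 of 8 gamma), against 22.9%. The largest changes with sh50 were 2.57 ± 0.52 for PCDH18 (5.92-fold higher), 1.49 ± 0.18 for PCDHGC5 and 1.28 ± 0.43 for PCDHGA9 (log2, SE, limma, adjusted p = 0.475, 0.475 and 0.552). PCDHGA9 stood at 0.64 without sh50 replicate 2 and at 1.92 without sh50 replicate 1. With sh52 they were 1.34 ± 0.18 for PCDHGC5, 1.10 ± 0.44 for PCDHGA10 and 1.04 ± 0.57 for PCDHGB2 (limma, adjusted p = 0.501, 0.564 and 0.649), and without shGFP replicate 1 PCDHGA10 stood at 0.62 and PCDHGB2 at 0.67. The lowest estimates were -0.21 ± 0.27 for PCDH10, -0.066 ± 0.27 for PCDH15 and -0.025 ± 0.15 for PCDH1 with sh50. With sh52 they were -0.40 ± 0.27 for PCDH15, -0.025 ± 0.37 for PCDHB18P and -0.021 ± 0.15 for PCDH1. By limma 0 rows passed with sh50 or with sh52 (2784 and 2964 had an unadjusted p under 0.05). Gamma genes had a median change of 1.04 with sh50 and 0.44 with sh52, beta genes 0.49 and 0.58. The gamma median with sh50 was 0.61 without sh50 replicate 2 and 1.63 without sh50 replicate 1, and with sh52 it was 0.23 without shGFP replicate 1. The beta median with sh52 was 0.32 without sh52 replicate 1.

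Between the hairpins the largest difference was that of PCDH18, lower with sh52 than with sh50 by -1.52 ± 0.52 (log2, SE, 95% interval -2.80 to -0.25, limma, adjusted p = 0.749). PCDHGA9 and PCDHB5 were next with -1.03 ± 0.43 and -0.68 ± 0.29 (PCDHGA9 at -0.38 without sh50 replicate 2, PCDHB5 at -0.35 without sh52 replicate 1). For all 3 genes the sh52 arrays lay below both sh50 arrays, as in 16.6% of tested rows. The highest estimates were 0.41 ± 0.46 for PCDHB16, 0.26 ± 0.21 for PCDHB13 and 0.26 ± 0.21 for PCDHB7. For PCDHGC5 the interval of the difference ran from -0.59 to 0.29. By limma 0 rows passed here too (2138 had an unadjusted p under 0.05).

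Replicate 1 was compared with replicate 2 within the hairpin groups, since both numbers occur in every group. Most gamma genes had lower values in replicate 1. In 6 of 8 gamma genes replicate 1 lay below replicate 2 in all 3 groups, against 15% of all rows and 3 of 18 beta genes. Among tested rows alone this held for 6 of 7 gamma genes and 3 of 13 beta genes, against 20.1% of rows. PCDHGB2 differed by -1.49 with sh50, -0.78 with sh52 and -0.76 with shGFP (fit -1.01 ± 0.20, SE, limma, adjusted p = 0.294). PCDHGA10 differed by -0.92 with sh50, -0.38 with sh52 and -0.96 with shGFP (fit -0.76 ± 0.17, limma, adjusted p = 0.337). PCDHGA9 differed by -1.29, -0.31 and -0.35 in the same order (fit -0.65 ± 0.24, limma, adjusted p = 0.461), and PCDHGB8P by -0.79, -0.084 and -0.46. For PCDHGB2 the difference between replicates was about as large as its change of 1.04 with sh52, whereas PCDHGC5 differed between replicates by -0.30, -0.14 and -0.14 only. What a replicate number marks is not given.

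The beta cluster had no such common direction, with a median of -0.010 over 13 tested genes, against -0.44 over 7 gamma genes and -0.039 over all tested rows. Without either sh50 array the gamma median was -0.27 and the beta median 0.24. PCDHB2 was higher in replicate 1 in each group, by 0.39 with sh50, 0.32 with sh52 and 0.31 with shGFP (fit 0.34 ± 0.13, SE, limma, adjusted p = 0.470). PCDHB13 and PCDHB6 were higher in replicate 1 as well (fits of 0.23 ± 0.16 and 0.18 ± 0.13), and the pseudogene PCDHB18P lower (-0.54 ± 0.21). Outside the clusters PCDH17 was higher in replicate 1, by 0.57 with sh50, 0.23 with sh52 and 1.48 with shGFP (fit 0.76 ± 0.27, limma, adjusted p = 0.444). Over all rows 9 of 33764 passed (0.0267%), of which 0 were protocadherins.

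**Figure D3:**
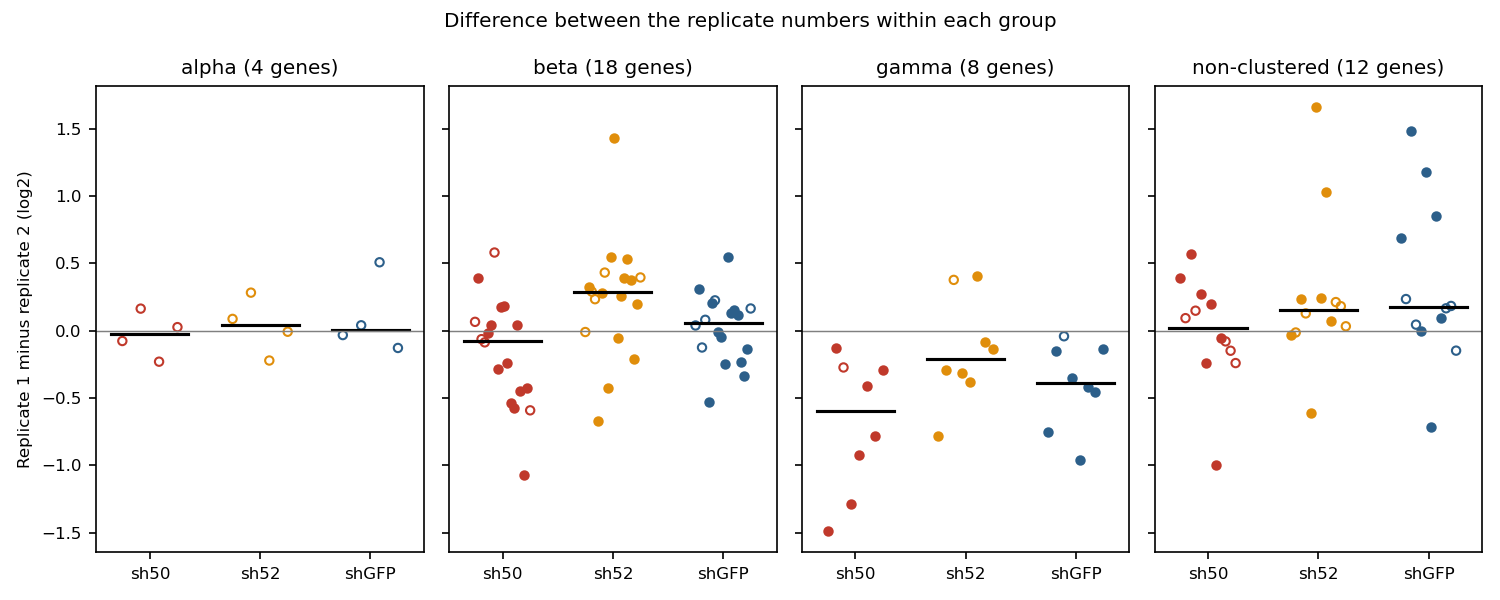
Log2 value in replicate 1 minus that in replicate 2 (vertical axis) for each protocadherin, by cluster and by group. Gamma symbols lie mostly below 0, down to -1.49 for PCDHGB2 with sh50, while beta symbols lie on both sides; black bars are medians over all members.

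As a description, each hairpin array was set against its same-numbered shGFP array. The 8 gamma genes differed by a median of 0.74 (sh50) and 0.56 (sh52) for number 1 and 0.99 (sh50) and 0.26 (sh52) for number 2. The medians over all 18 beta genes were 0.37 and 0.48 for number 1 and 0.57 and 0.29 for number 2. Of the 8 gamma genes 7, 8, 8 and 6 were higher in these 4 pairs, taken in the same order, and of the 18 beta genes 16, 16, 17 and 15 were higher in those pairs. Over all tested rows the medians were -0.0076 (sh50) and 0.042 (sh52) for number 1 and -0.0038 (sh50) and -0.037 (sh52) for number 2. For the counts by pair no share over rows is given.

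**Figure D4:**
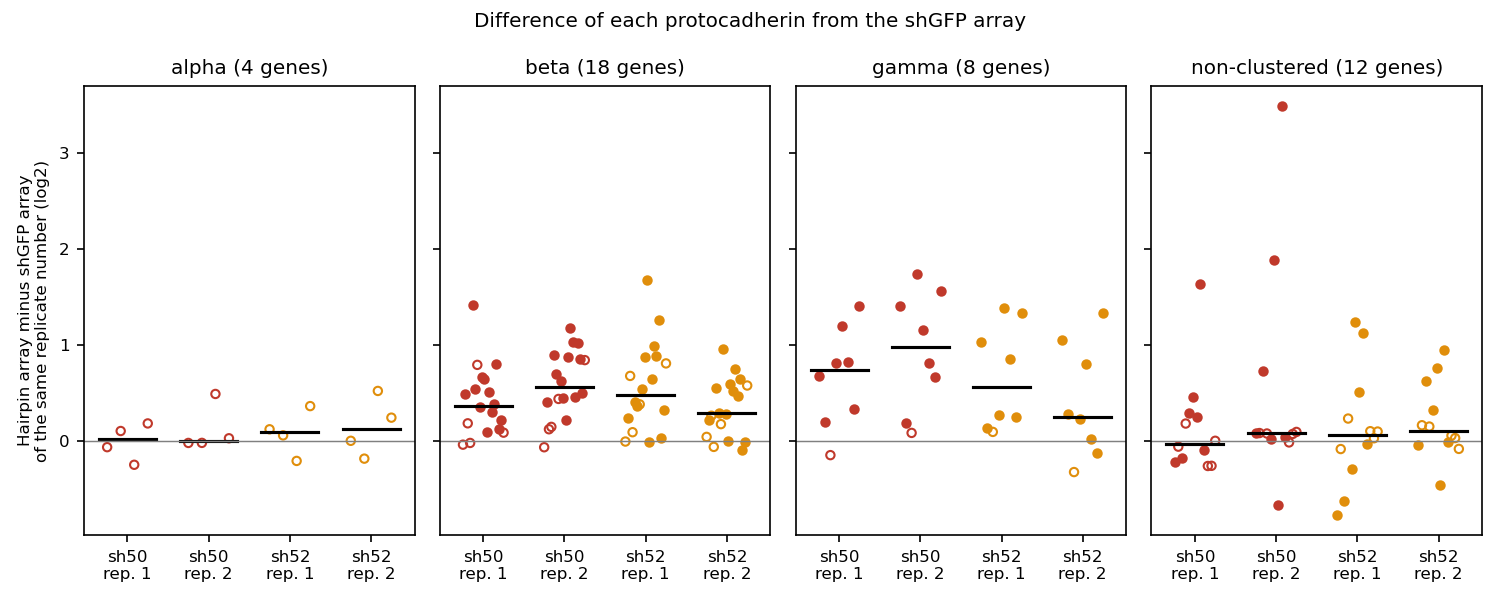
Log2 value on each hairpin array minus that on the shGFP array of equal replicate number (vertical axis), 1 symbol per protocadherin, by cluster, with sh50 in red and sh52 in orange. Filled symbols passed the filter, open symbols did not, and black bars are medians over all members; the gamma bars stand at 0.74 and 0.99 with sh50 and at 0.56 and 0.26 with sh52, while the non-clustered bars stay near 0.

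Genes known to act on the clusters were read beside them. Of 25 listed genes for CTCF, cohesin, DNA methylation and repressors of the clusters 23 were tested, with the estimate lower for 15 and higher for 8 in the mean of both hairpins (median log2 change -0.099). For 7 of the 23 the unadjusted p was under 0.05 downward, against 4.83% of all tested rows, and for 0 upward, against 4.35%. CTCF, the factor that binds the promoters, stood at 10.31 and 10.01 with sh50, at 9.71 and 10.22 with sh52 and at 10.65 and 11.03 with shGFP. The cohesin subunit SMC1A stood at 11.04 and 9.74 with sh50, at 11.23 and 11.31 with sh52 and at 12.49 and 12.04 with shGFP. SMCHD1, which takes part in silencing the clusters, stood at 11.50 and 10.79 with sh50, at 11.21 and 11.07 with sh52 and at 12.05 and 11.79 with shGFP. These 3 were among 8 of the 23 genes with every hairpin array below both controls, against 10.1% of tested rows. In 1 of the 23 every hairpin array lay above both controls, against 8.98%.

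The changes were -1.43 ± 0.37 for SMC1A, -0.99 ± 0.32 for the maintenance methyltransferase DNMT1 and -0.91 ± 0.18 for the cohesin subunit SMC3 (log2, SE, limma, adjusted p between 0.456 and 0.492). Cohesin-associated PDS5A and STAG1 differed by -0.82 ± 0.17 and -0.62 ± 0.13, and CTCF and SMCHD1 by -0.78 ± 0.22 and -0.78 ± 0.23. PDS5A, STAG1, CTCF and SMCHD1 were chosen after their values were seen. The largest estimates upward were 0.42 ± 0.20 for TET2, 0.21 ± 0.18 for TET1 and 0.18 ± 0.14 for SETDB1. Whether these genes have a part in the protocadherin levels was not tested.

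**Figure D5:**
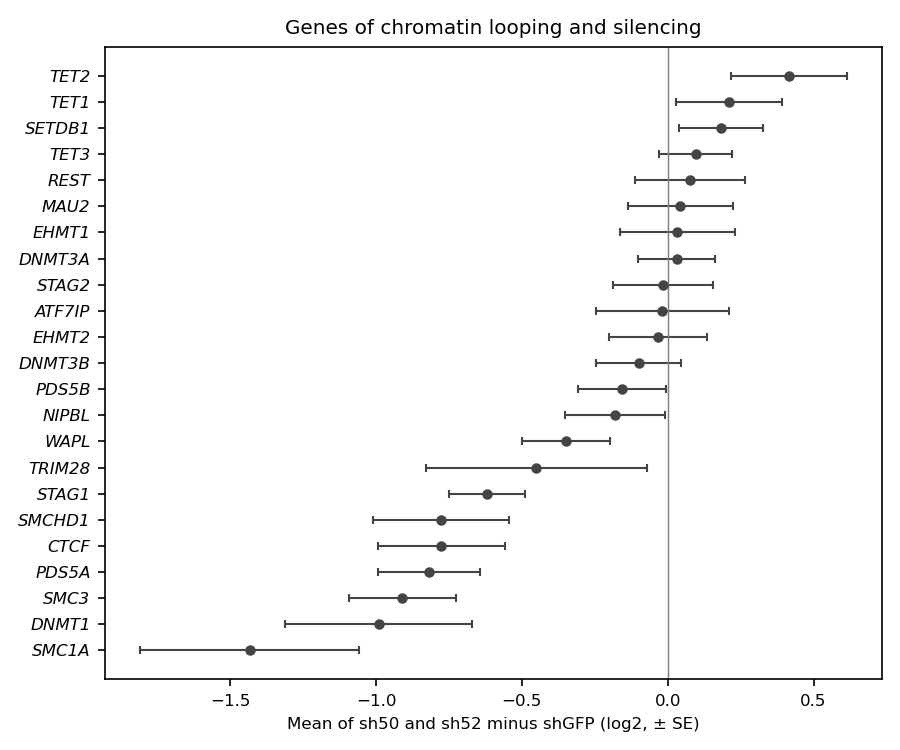
Log2 change of both hairpins together from shGFP, with its standard error, for the tested genes that act on the protocadherin clusters. SMC1A is lowest at -1.43 and TET2 highest at 0.42; no gene passed the adjusted threshold.

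Genes whose products work with protocadherins had 17 of 22 members tested, 13 with a higher and 4 with a lower estimate (median change 0.046). NCSTN, a subunit of the gamma-secretase that cleaves gamma protocadherins, stood at 10.20 and 10.62 with sh50, at 10.17 and 9.86 with sh52 and at 9.20 and 9.20 with shGFP (change 1.01 ± 0.18, SE, limma, adjusted p = 0.456). WASF2, of the WAVE complex that binds several protocadherin tails, differed by -0.92 ± 0.19 (limma, adjusted p = 0.456). Of the 17 genes 2 had every hairpin array below both controls and 1 above, against 10.1% and 8.98% of tested rows. ADAM10, a protease that sheds gamma protocadherins, lay on opposite sides of the controls with the 2 hairpins. It stood at 10.50 and 10.83 with sh50, at 12.31 and 12.12 with sh52 and at 11.49 and 11.84 with shGFP. It differed by -1.003 ± 0.21 with sh50, by 0.55 ± 0.21 with sh52 and by 1.56 ± 0.21 between sh52 and sh50 (log2, SE, limma, adjusted p = 0.475, 0.547 and 0.492). Of 47 other cadherin superfamily genes 17 were tested, 14 with a higher and 3 with a lower estimate (median change 0.15). Over all tested rows 49.2% had a higher estimate. In 4 of the 17 every hairpin array lay above both controls and in 0 below, against 8.98% and 10.1% of tested rows. FAT2, 1 of these 4, stood at 3.92 and 3.895 with shGFP, below the filter. It was tested only through its hairpin arrays, at 4.12 and 4.21 with sh50 and at 4.48 and 4.17 with sh52. CDH11, 1 of the 14 with a higher estimate, also averaged below the filter with shGFP. The counts and the median over these 17 cadherin genes include both. CLSTN1, encoding calsyntenin, differed by 0.91 ± 0.24 (SE, limma, adjusted p = 0.469), and FAT4, a giant cadherin, by 0.87 ± 0.52 (0.39 without sh50 replicate 2).

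Of the 4 neuronal markers that passed the filter, 3 had a higher estimate in the mean of both hairpins and 1 a lower one. SNAP25 and MAP2 differed by 1.503 ± 0.31 and 1.22 ± 0.27 (log2, SE, limma, adjusted p = 0.456 for both), GAD1 by 0.27 ± 0.15 and SYT1 by -0.25 ± 0.25. The summed log2 level of these 4 was 27.5 and 28.4 with sh50, 28.0 and 27.7 with sh52 and 24.8 and 25.6 with shGFP. SNAP25, a synaptic vesicle fusion protein, stood at 8.82 and 9.23 with sh50, at 9.78 and 9.62 with sh52 and at 7.35 and 8.37 with shGFP. Among the 6 neuronal markers named above as below the filter, values lay between 3.13 and 3.82 on every array. The part of these markers in the protocadherin levels was not tested.

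The counts were also taken with each array left out. Without the array labelled sh52 replicate 1, every remaining hairpin array lay above both controls in 21 of 42 genes, among them 12 beta and 5 gamma genes (12.4% of tested rows). Without shGFP replicate 2 the count was 25, with 7 gamma genes (23.7% of tested rows), and the beta count was 10 to 13 whichever array was left out. The shares here are over tested rows, 8.98% with all arrays kept, whereas the counts include genes below the filter.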

How the data were processed

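Total RNA was read on Affymetrix human transcriptome arrays, per the labels' protocols. The authors deposited log2 expression values, summarised by RMA with Expression Console over core exons, per the labels. The submitters' processing notes also name Transcriptome Analysis Console. Neither the base of the logarithm nor the annotation build is given in the sources used here, and base 2 was assumed. Symbols came from the platform annotation and were updated by gene identifier.

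Of 67528 transcript cluster rows, 33764 with a mean at or above the median entered a limma fit (version 3.58.1, R 4.3.3) with 1 mean per group, and p-values were two-sided and adjusted by Benjamini-Hochberg at 0.05. The replicate fit added the hairpin group. The script was tested on simulated data. Same-numbered arrays did not deviate together in every pair (r = 0.39 for sh50 and shGFP, 0.35 for sh52 and shGFP, 0.052 for sh52 and sh50), so numbers were not treated as pairs.

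Changes are given for members whose hairpin arrays do not overlap the controls, the 3 largest each way in each single comparison and up to 5 each way between replicates that agree in direction in all groups; for other lists, the largest each way. Members and lists were chosen with earlier results of these data known, so lists have no test. Promoters were those of RefSeq (GRCh38.p14). Rows with several symbols were left out.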

Additional observations from a re-analysis of the deposited data

Results flagged for a closer look

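A row outside the comparisons, annotated with 2 symbols of the beta cluster and therefore not assigned to a gene, carried a signal that was higher with the hairpins. It stood at 5.87 and 5.93 with sh50, at 6.58 and 5.71 with sh52 and at 5.17 and 4.78 with shGFP (log2). All hairpin arrays lay above both controls, and the group means differed by 1.05. It was 1 of 7 rows outside the members that were looked at, and the difference was not tested. Groups of 2 arrays are too small for a check on outlying samples.

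ADAM10, read among the genes that work with protocadherins, lay below both controls on both sh50 arrays and above both on both sh52 arrays. The sh52 mean exceeded the sh50 mean by 1.56 (log2), and the test of that difference did not pass adjustment (limma, adjusted p = 0.492).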

How the results depend on the processing

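At an unadjusted p under 0.05 the counts of rows were 2784 (sh50 against shGFP), 2964 (sh52 against shGFP), 3102 (mean of both), 2138 (sh52 against sh50) and 3495 (replicate 1 against 2) in place of 0, 0, 0, 0 and 9. Without a term for hairpin group the replicate comparison had 4. Leaving out 1 array at a time gave 0 to 1 row with sh52 against shGFP, 0 to 1 between the hairpins (1 without sh52 replicate 2 in both) and 0 to 18 between replicates, with 18 without either sh52 array and 0 without any other. With the replicate number as a block 0 rows passed in each hairpin comparison. In the mean of both, rows with an unadjusted p under 0.05 upward then numbered 1939 (5.74%) in place of 1470 (4.35%). Among them were 5 of 7 tested gamma genes in place of 3, and 8 of 13 beta genes in both fits. Non-clustered genes were 2 of 7 in place of 1. With members at or above the 75th percentile only, medians were 1.18 for non-clustered genes with sh50, 0.84 for beta, 1.07 for gamma and 1.00 for non-clustered genes with sh52, 1.09 for non-clustered genes in the mean of both, 0.20 for beta genes between the hairpins and 0.76 for non-clustered genes between replicates. With members below the filter included, the beta median between the hairpins was -0.013. Leaving out 1 array at a time, the gamma median ran from 0.61 to 1.63 (without sh50 replicate 1) with sh50, from 0.23 to 0.65 with sh52 and from -0.62 to -0.27 between replicates. The beta median ran from 0.32 (without sh52 replicate 1) to 0.61 with sh52, from 0.42 (the same array) to 0.65 in the mean of both, from -0.30 to 0.011 (without sh50 replicate 2) between the hairpins and from -0.15 to 0.24 (without either sh50 array) between replicates. The alternatives on counts of members with every hairpin array above the controls were chosen after seeing the data. With 1 array left out the counts were beta 10 to 13, gamma 3 to 7 and all members 16 to 25. The share of tested rows then ran from 10.8% to 23.7%, against 8.98% with all arrays kept, whereas the counts include members below the filter. The gamma count of 7 and the total of 25 came without shGFP replicate 2, where that share was 23.7%. The counts were 11, 4 and 17 after quantile normalization and 9, 3 and 15 after centring, and no share over rows is given for these. Of single genes, some small differences turned in sign: with sh50, PCDH10 ran from -0.57 to 0.15, PCDH15 from -0.41 to 0.28 and PCDH1 from -0.070 to 0.020 (0.0014 after centring). With sh52, PCDHB18P ran from -0.19 to 0.14 and PCDH1 from -0.066 to 0.024. Between the hairpins PCDHB13 ran from -0.0051 to 0.53 and PCDHB16 from -0.31 to 1.12, both turning without sh52 replicate 1. Without 1 array, PCDHGA10 in the mean of both stood as low as 0.66, PCDHGB7 at 0.42, PCDHGA9 with sh50 at 0.64, PCDH18 between the hairpins at -1.01, and between replicates PCDHGA9 at -0.33 and PCDH17 at 0.40. The cadherin DSG2 in the mean of both ran from -0.47 to 0.015. The cause was not tested. Every member had 1 row, so the mean of all rows of a gene gave the same values. The number of arrays limits what can pass: 0 members did after adjustment in any comparison, whatever the size of the change.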
